A study of Mus musculus with 9 samples.

Results

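Hippocampal gene expression was compared between mice that overexpressed IF1 in neurons (IF1-TG) and mice that lacked it there (IF1-KO), the widest contrast in IF1 dose that the study offers. The comparison rests on 6 of the 9 arrays of the series, 3 IF1-TG and 3 IF1-KO, and the other 3 arrays come from control mice (CRL). All mice were males aged 9 months, maintained on a C57BL/6J background. Founder lines included C57BL/6N for the floxed allele and lines of C57BL/6 and CBA origin for the IF1 and tTA transgenes. Each array was hybridized with hippocampal RNA of 1 mouse under a single dye. Probes were taken into the comparison when their spots were well above background on all 9 arrays, leaving 25238 of 39429 probes that carried 19794 gene names. The question was which transcripts differ between the extremes of IF1 dose.

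IF1-KO mice carried a floxed Atp5if1 gene from which exon 3 was removed by Cre under the Camk2a promoter. IF1-TG mice carried human IF1 under a tetracycline-regulated element together with the transactivator tTA, again under the Camk2a promoter. That promoter is active mostly in excitatory neurons of the forebrain, so interneurons, glia and vessels kept their own IF1 in both genotypes and contributed RNA to every array. One genotype thus carries a deletion and the other an added human gene. In bulk tissue, fewer cells of a type and less RNA per cell cannot be told apart.

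IF1 is a small mitochondrial protein that binds the F1 part of ATP synthase, the rotary enzyme that makes ATP from the proton gradient of the inner membrane. Bound IF1 blocks the turning of the enzyme, and neurons hold much of it. The enzyme has a catalytic F1 head, a membrane-embedded Fo part with the ring through which protons pass, and a stalk that joins them.

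Every value below is a log2 signal from which the 75th percentile of the array was subtracted, so that levels are comparable between arrays for 1 probe but not between probes, and a difference is IF1-TG minus IF1-KO. Arrays are named KO1 to KO3, CRL1 to CRL3 and TG1 to TG3 by genotype and replicate number. They lay on 3 slides, TG1 and TG2 on slide 1, KO1, CRL1, CRL2 and TG3 on slide 2, and KO2, KO3 and CRL3 on slide 3. Only slide 2 thus held both genotypes, and for the other 4 arrays slide and genotype cannot be told apart. The share of probes well above background was 66.8% to 69.7% on the IF1-TG arrays and 71.2% to 73.0% on the IF1-KO arrays. All 10 markers of excitatory neurons, all 8 of CA1 and subiculum and all 10 of the dentate gyrus were well above background on the 9 arrays, as were 8 of 9 for CA3 and CA2.

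Atpif1, the gene of IF1, was read by 1 probe on chromosome 4 of mm9, from 132086507 to 132086566. The first 30 of its 60 bases are shown because this probe is the check of the genotype labels.
Atpif1: ccgtatcactccccacgtctgtagacacat
Its level was 6.52 on the array labelled KO1, 5.28 on KO2 and 5.60 on KO3, 6.40, 6.42 and 6.26 on the CRL arrays and 6.49, 6.47 and 6.58 on the IF1-TG arrays. The array labelled KO1 thus showed no reduction and overlapped the IF1-TG arrays, whereas the other 2 IF1-KO arrays lay below every other array. The fitted difference was 0.71 (SE 0.27, unadjusted P = 0.0266, limma). Leaving out the array labelled KO1 gave 1.08, leaving out KO2 0.45 and leaving out KO3 0.62. The call defined below was lost without KO2, without KO3 and without TG1 (0.73), TG2 (0.74) or TG3 (0.68). Within slide 2 the difference was 0.06, and with slide as a block in the fit it was 0.37, not called. No other genotype lay on slide 1, so that the block took up TG1 and TG2, and TG3 alone gave the IF1-TG level. Whether the probe lies in the deleted exon, and whether it detects the human transcript, was not tested. Because 1 of the 3 labels is not borne out by this probe, values without the array labelled KO1 are given for the genes with the largest differences and for 8 of the 12 called on several probes.

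In total, 741 of 19794 genes (3.74%) differed by at least 1.5-fold with an unadjusted P value below 0.05 on at least 1 probe, the threshold of the study's methods. Of these, 430 genes (2.17%) were higher and 313 (1.58%) were lower in IF1-TG mice, and 2 genes had probes called each way. After quantile normalization of normexp-corrected signals the split was 254 higher and 291 lower. The calls covered 761 probes (3.02%), and 608 of them (2.41%) showed no overlap between the 3 arrays of each genotype, as did 3409 of all probes (13.5%). An unadjusted P value below 0.05 was found for 1714 probes in the limma fit (6.79%), where 5% of the probes would be 1262. After Benjamini-Hochberg adjustment 1 probe passed (0.00396% of probes), a probe of Stk38l. An exact permutation test of a single probe over 3 against 3 arrays cannot go below 0.1. Without the array labelled KO1, 1005 genes were called, among them 554 of the 741, and without KO2 only 408 were.

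Calls were densest among dim probes. With probes ranked by brightness into 4 classes of equal size, the share called fell from 5.04% in the dimmest through 3.28% and 2.11% to 1.63% in the brightest. The median difference over all probes was 0.01, and it was 0.04 in the brightest class. The spread between replicates was wider in IF1-TG mice, with a median SD of 0.21 against 0.16 in IF1-KO mice.

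Since only slide 2 held both genotypes, genes were called again from the arrays of slides 1 and 3, 2 for each genotype, with the CRL arrays kept for the spread, and were then read on the pair of slide 2. That fit called 1274 probes (5.05%), 497 higher and 777 lower in IF1-TG mice. Of the 497 probes called higher, 63.2% were also above 0 on slide 2, where 54.5% of all probes were, and 22.9% were at least 1.5-fold higher there, against 7.73% of all probes. Their median difference was 0.79 on slides 1 and 3 and 0.18 on slide 2. Of the probes called lower, 46.6% were below 0 on slide 2, against 45.5% of all probes, and 8.38% were at least 1.5-fold lower, against 5.01% of all probes, while more of them, 83 against 65, were at least 1.5-fold higher there. Of the probes called higher, 39 were at least 1.5-fold lower and 114 at least 1.5-fold higher. The median of the probes called lower was -0.81 on slides 1 and 3 and 0.02 on slide 2. Calls of higher expression were therefore partly repeated on the shared slide, while the direction of the lower calls was repeated there about as often as for any probe. The slide 2 pair is 1 mouse of each genotype and includes the array labelled KO1.

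**Figure D1:**
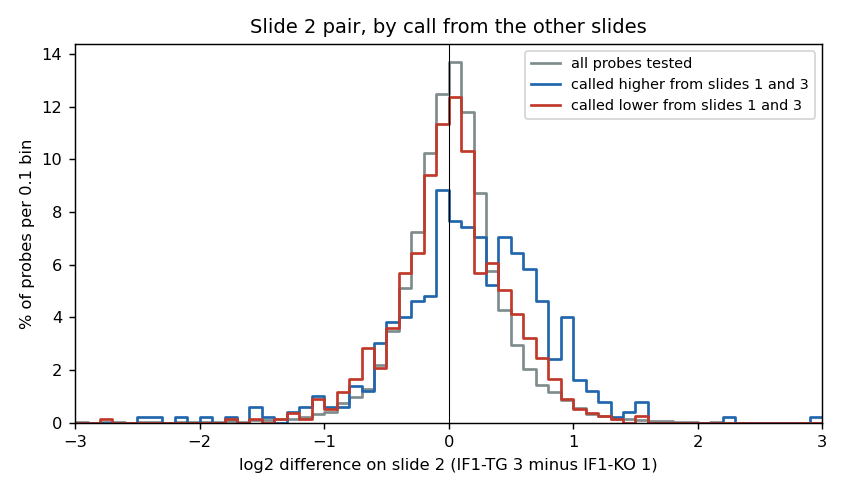
Distribution of the log2 difference between TG3 and the array labelled KO1 on slide 2 (x axis) as percent of probes per bin of 0.1 (y axis), for all probes and for those called higher or lower from slides 1 and 3, with values past 3 placed in the end bins. The probes called higher extend to the right of all probes, whereas those called lower lie on top of them.

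The CRL arrays showed the same layout. Among probes called higher in IF1-TG mice, the CRL array of slide 3 was nearer to the IF1-KO mean than to the IF1-TG mean on 94.1% of them, against 54.4% and 52.0% for the CRL arrays of slide 2. Among probes called lower the shares were 87.1% on slide 3 and 71.7% and 60.3% on slide 2. Over all probes tested they were 69.0%, 51.6% and 49.5%. Since TG1 and TG2 were alone on slide 1, TG3 alone gave the IF1-TG level in the fit with slide as a fixed block. With slide as a fixed block 1115 genes were called, with slide as a random block 649, and without both slide 2 arrays 1245, and values with the fixed block are given for named genes whose call it changed.

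Stk38l, which encodes the serine/threonine kinase NDR2, gave the 1 difference past adjustment. This gene was read by 3 probes, and the files place the called probe on chromosome 1, from 100354973 to 100355032, whereas the other probes lie on chromosome 6, where RefSeq has the gene. The first 30 bases of each are given because the size of the change depends on the probe.
Stk38l, probe on chromosome 1: tccaccgggacgtcaaaccagacaaccttt
Stk38l, probe on chromosome 6 from 146727193: tttttaagcaatataatccagcagttgtcc
Stk38l, probe on chromosome 6 from 146725000: gctgagtttcagaaatgaccatgaaagctg
The 60-base probes shared no run longer than 6 bases with each other. On the chromosome 1 probe the level was -5.08, -5.04 and -5.24 in IF1-KO mice, -5.64, -5.59 and -5.26 in CRL mice and -3.41, -2.80 and -2.82 in IF1-TG mice. All IF1-TG arrays lay above all other arrays, by 2.11 over IF1-KO mice (SE 0.19, 4.32-fold, adjusted P = 0.0369, limma), 2.13 without the array labelled KO1 and 2.26 within slide 2. The call held with each array left out (2.01 to 2.31) and with slide as a block (2.40), but under quantile normalization, with slide as a block and in a fit to the 6 arrays alone no probe passed adjustment. The chromosome 6 probes rose less, by 0.57 (unadjusted P = 0.00241) and 0.31, without reaching 1.5-fold, and their slide 2 differences were 0.38 and 0.12. On all 3 probes the genotypes were free of overlap.

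Genes called on more than 1 probe offer a check within the array. Of 246 called genes with a RefSeq name and at least 2 probes tested, 12 were called on at least 2 probes in the same direction. The 8 higher in IF1-TG mice were Wdfy1, Gabra2, Rab37, Hmgb1, Laptm5, G2e3, Macrod2 and Tuba3a, and the 4 lower were Smco3, Entpd4, Mid1 and Npy2r. The probe differences were 0.72 and 0.62 for G2e3, 0.59 and 0.63 for Macrod2, 0.81 and 0.81 for Tuba3a and -0.84 and -0.91 for Npy2r, and the other 8 are described below. Probes of a gene share the same RNA, and those of Gabra2 and of Rab37 overlap in position, so that they are not independent.

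Gabra2 encodes the alpha 2 subunit of the GABA A receptor, the chloride channel of fast inhibition. On its brighter probe the level was -0.19, -0.80 and -0.25 in IF1-KO mice, -0.02, -0.38 and -0.44 in CRL mice and 0.41, 0.75 and 0.78 in IF1-TG mice. IF1-TG mice stood above both other genotypes without overlap. The difference was 1.06 (SE 0.20, unadjusted P = 0.000502), 1.17 without the array labelled KO1 and 0.98 within slide 2. The second probe differed by 1.47, with 1.14 within slide 2. Both probes lie on chromosome 5 between 71352276 and 71352365.

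Wdfy1, an endosomal adaptor of Toll-like receptor signaling, was lower in IF1-KO mice than in both other genotypes. Its 3 tested probes lie on chromosome 1, and their first 30 bases are shown because the third did not follow the others.
Wdfy1, probe from 79698903: gagacgctgcaaatttttgttctttctact
Wdfy1, probe from 79699969: aaattatatttaaagaagaattagagggag
Wdfy1, probe from 79715620: acccctcctcccattgttagctgctttgaa
On the first probe the level was -0.35, -0.61 and -0.49 in IF1-KO mice, 1.44, 0.77 and 1.19 in CRL mice and 0.70, 0.73 and 0.68 in IF1-TG mice. The array labelled KO1 lay with the other IF1-KO arrays here. The difference was 1.19 (SE 0.17, unadjusted P = 6.89e-05), 1.26 without the array labelled KO1 and 1.03 within slide 2, and the second probe gave 0.97. The third probe differed by -0.08, with overlapping arrays.

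Laptm5, a lysosomal membrane protein of blood-derived cells and microglia, lies on chromosome 4 near Atpif1, at 130490785 to 130490844 for its brighter probe. Its level was -2.24, -2.29 and -1.67 in IF1-KO mice, -1.44, -1.65 and -1.92 in CRL mice and -0.95, -1.59 and -1.15 in IF1-TG mice. The difference was 0.83 (unadjusted P = 0.0053), 0.74 without the array labelled KO1 and 1.09 within slide 2. With slide as a block it was 0.87 and not called. Rab37, a small GTPase of secretory vesicles, differed by 0.85 and 0.62 on 2 probes, the former 0.81 without the array labelled KO1 and 0.42, not called, with slide as a block. The call was also lost without TG2, where the difference was 0.54, since that array stood at -0.07 and the other IF1-TG arrays at -0.87 and -1.16. Hmgb1, a chromatin protein with many near-identical copies in the genome, was read by 8 probes that the files place on chromosomes 5, 7, 12 and X. Of these, 3 were called, with differences of 0.84, 0.92 and 0.62, none of them on chromosome 5 where the gene lies, and the 3 probes on chromosome 5 differed by 0.34, -0.01 and -0.23. Which copies these probes read is uncertain. On the brightest called probe the difference was 1.05 without the array labelled KO1 and 0.60, not called, with slide as a block. Without KO2 it was 0.54, also not called, and KO2 stood at 1.60 against 2.36 or more elsewhere.

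Among the genes lower on several probes, Smco3, a small membrane protein, was -0.87, -1.30 and -0.86 in IF1-KO mice, -0.87, -1.25 and -0.79 in CRL mice and -2.03, -1.77 and -2.08 in IF1-TG mice. IF1-TG mice stood alone, by -0.95 (SE 0.18, unadjusted P = 0.000458), -0.88 without the array labelled KO1 and -1.21 within slide 2. The second Smco3 probe gave -0.99. Entpd4, a nucleotide hydrolase of the Golgi and lysosomes, was 3.65, 3.58 and 3.58 in IF1-KO mice, 3.50, 3.23 and 3.38 in CRL mice and 3.04, 2.43 and 2.64 in IF1-TG mice. It differed by -0.90 (unadjusted P = 0.000336), with -0.88 without the array labelled KO1, -1.02 within slide 2 and -0.80 on its second probe. Mid1, an X-linked ubiquitin ligase of microtubules, was higher in IF1-KO mice than in either other genotype, at -2.83, -2.30 and -3.15 against -3.46, -3.58 and -3.46 in CRL mice and -3.24, -3.41 and -3.58 in IF1-TG mice. The difference was -0.65, -0.68 without the array labelled KO1 and -0.77, not called, with slide as a block. The second Mid1 probe gave -1.08, with -1.26 within slide 2. The first was -0.42 without KO2 and -0.56 without TG3, both short of 1.5-fold.

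**Figure D2:**
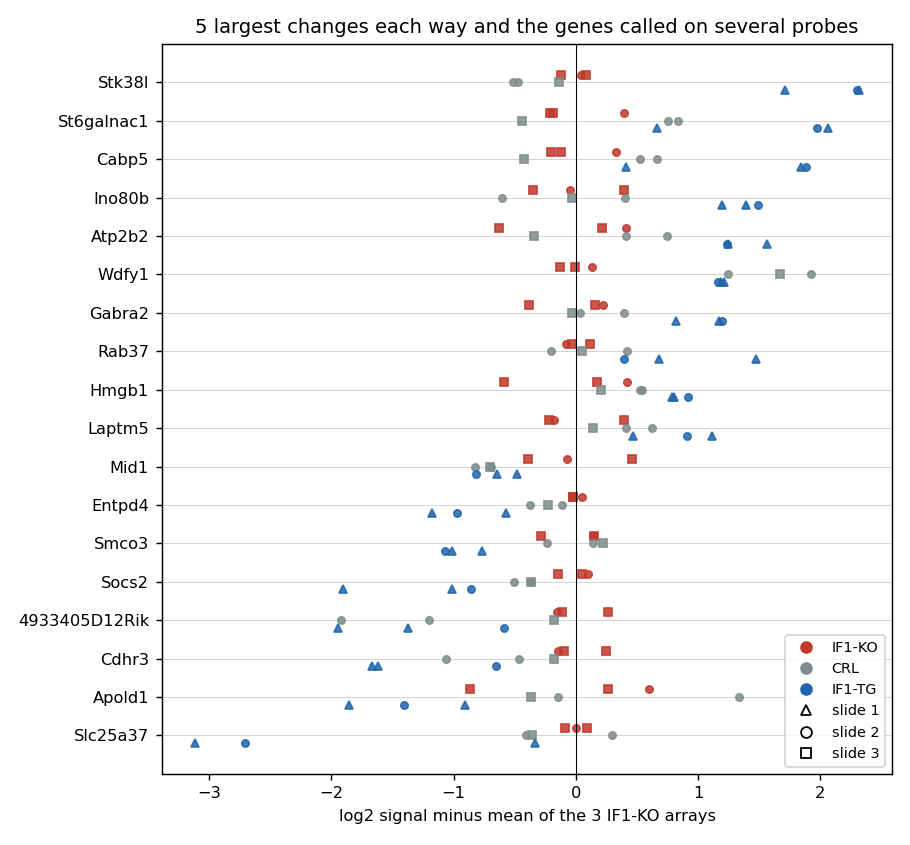
Log2 signal on each array minus the mean of the 3 IF1-KO arrays (x axis), with genotype by color and slide by marker. Rows are the 5 largest increases, the 5 largest decreases and the genes called on several probes except G2e3, Macrod2, Tuba3a and Npy2r. Stk38l, Ino80b and Gabra2 show all IF1-TG arrays apart from the rest, whereas St6galnac1 and Cabp5 show 2 IF1-TG arrays high and 1 near the others.

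For the remaining large differences, the call came from 1 probe of the gene, and any further probe tested was not called. Ino80b, a subunit of the INO80 chromatin remodeler, was -1.93, -2.23 and -1.49 in IF1-KO mice, -2.49, -1.48 and -1.92 in CRL mice and -0.49, -0.68 and -0.39 in IF1-TG mice. It rose by 1.36 (SE 0.27, unadjusted P = 0.000666), by 1.34 without the array labelled KO1 and by 1.54 within slide 2, and no other probe of it was tested. Atp2b2, the plasma membrane calcium pump PMCA2, was 3.54, 2.51 and 3.35 in IF1-KO mice, 3.54, 3.87 and 2.79 in CRL mice and 4.70, 4.38 and 4.37 in IF1-TG mice on the called probe. That probe rose by 1.35 (unadjusted P = 0.00253) and by 1.56 without the array labelled KO1, but with slide as a block the difference was 0.73 and not called, while the brighter Atp2b2 probe differed by 0.05 and by -0.16 within slide 2.

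St6galnac1, a sialyltransferase, Cabp5, a calcium-binding protein, and Shc4, a signaling adaptor, shared a pattern over the arrays. Their IF1-TG levels were -0.88, -2.29 and -0.98 for St6galnac1, 1.32, -0.11 and 1.36 for Cabp5, and 0.49, -0.90 and 0.51 for Shc4. On each of them TG2 lay beside the CRL arrays and replicates 1 and 3 stood higher, although replicates 1 and 2 shared a slide. The differences over IF1-KO mice were 1.57, 1.38 and 1.31, or 1.77, 1.54 and 1.39 without the array labelled KO1, and the second probes of St6galnac1 and Shc4 differed by -0.24 and -0.21.

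The transcription factor Tcf7l2 rose by 1.34, but its brighter probe differed by 0.06, and the chromatin regulator Brd1 by 1.29 against 0.07 on its brighter probe. Srcap, the ATPase of a histone-exchange complex, rose by 1.24, with 1.43 within slide 2. With slide as a block Tcf7l2, Brd1 and Srcap gave 0.50, 1.20 and 1.42, none called, and without the array labelled KO1 1.44, 1.28 and 1.36. Tbx21, a T cell transcription factor, was -4.12, -5.53 and -5.79 in IF1-KO mice and -3.80, -4.08 and -3.77 in IF1-TG mice. Its difference of 1.26 was 1.78 without the array labelled KO1 and 0.38, not called, with slide as a block, and it lost its call without KO2 (1.07) or KO3 (0.94), without CRL1 (1.26) and without any 1 IF1-TG array (1.21 to 1.36).

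On the side of decreases, Slc25a37, the mitochondrial iron importer mitoferrin 1, had the largest value. It was -2.64, -2.54 and -2.72 in IF1-KO mice, -3.04, -2.34 and -2.99 in CRL mice and -2.97, -5.75 and -5.34 in IF1-TG mice. TG1 lay beside the CRL arrays and the other IF1-TG arrays far below. The difference was -2.05 (SE 0.61, unadjusted P = 0.00842), with and without the array labelled KO1, whereas the brighter Slc25a37 probe, with -0.11, did not differ beyond its spread. Slc25a37 and Entpd4 are neighbors on chromosome 14, with called probes from 69902797 and 69984685.

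Apold1, a regulator of vascular endothelium, fell by 1.39 on the log2 scale, with -2.48, -2.82 and -3.94 in IF1-KO mice and -4.94, -3.99 and -4.48 in IF1-TG mice. The CRL arrays ranged from -3.45 to -1.75, and the call was lost without KO1 (-1.09) or KO2 (-1.26) and without TG1 (-1.15) or TG3 (-1.38). Socs2, an inhibitor of growth hormone signaling, fell by 1.26 on 1 probe and differed by -0.17 and -0.19 on the others. The files place the called probe on chromosome 12, although the gene lies on chromosome 10. Cdhr3, a cadherin of ciliated cells, fell by 1.31 over all arrays and differed by -0.50 within slide 2 and by -0.38, not called, with slide as a block. The RNA gene 4933405D12Rik fell by 1.30, and its call was lost without KO3 (-1.17) or TG1 (-0.98) and with slide as a block, where the difference was -0.05, against -0.44 within slide 2. Without the array labelled KO1 the differences of Socs2, Cdhr3 and 4933405D12Rik were -1.21, -1.39 and -1.38.

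Lrif1, a nuclear chromatin protein, fell by 1.16, with -0.64 within slide 2. Pithd1, whose called probe had no usable spot on CRL2, fell by 1.16 and differed by 0.09 on its brighter probe. Brinp3, a neural protein that restrains cell division, fell by 1.09, and the call was lost without KO2 (-0.88) or TG1 (-0.69). Caprin1, an RNA-binding protein of neuronal granules, fell by 1.08 on 1 probe, with -1.57 within slide 2, while its 2 brighter probes differed by 0.23 and -0.03. With slide as a block Lrif1, Pithd1 and Brinp3 gave -0.54, -0.78 and -0.29, none called. Without the array labelled KO1 the differences of Lrif1, Pithd1, Brinp3 and Caprin1 were -1.16, -1.18, -1.15 and -1.02.

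The same held for the called genes as a group. Among 144 genes called higher that had another probe tested, the brightest other probe was above 0 in 97 (67.4%, against 52.8% of all probes), with a median difference of 0.06 against 0.72 on the called probe. Among 103 genes called lower, the other probe was below 0 in 55 (53.4%, against 47.2% of all probes), with a median of -0.02 against -0.73. The called probe was chosen for its difference and the other was not, so that the shift toward 0 is partly built into the comparison.

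**Figure D3:**
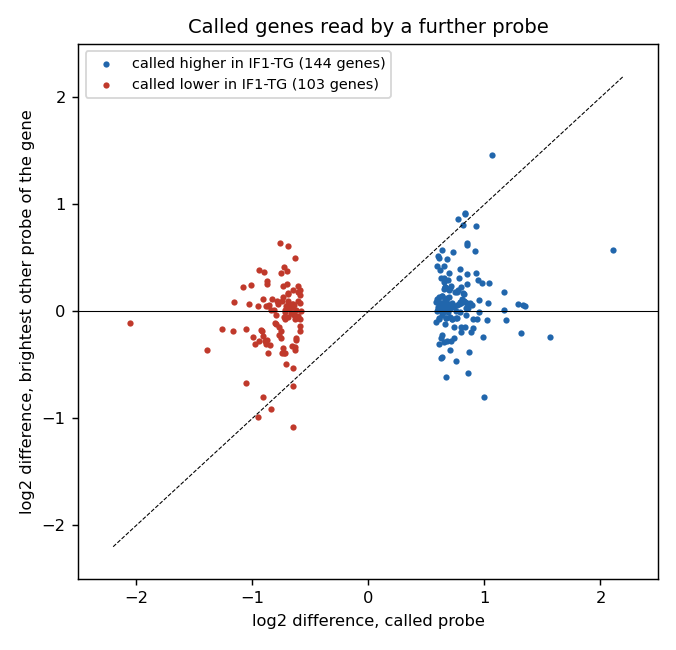
Log2 difference between IF1-TG and IF1-KO mice on the called probe (x axis) and on the brightest other probe of the same gene (y axis), for 144 genes called higher and 103 called lower; the dashed line marks equal values. Most points lie near 0 on the y axis, and 9 genes were called on both probes in the same direction.

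The genes of the pathways around IF1 were then read from 36 lists of 619 genes in all, of which 598 were tested. Of these 598 genes 19 were called (3.18%), 13 higher and 6 lower, a share near the 3.74% of all genes. No list had more than 2 genes called in 1 direction.

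Few genes of the enzyme that IF1 binds were called. Of the 8 genes of F1, its assembly factors and IF1, Atpif1 was the single gene called. Atp5b, the catalytic beta subunit, was 6.16, 6.10 and 6.10 in IF1-KO mice, 6.12, 6.22 and 5.98 in CRL mice and 6.31, 6.33 and 6.42 in IF1-TG mice. Its arrays did not overlap, and the difference was 0.23 (SE 0.11, unadjusted P = 0.0596). Atp5a1, the alpha subunit, had no usable spot on TG1 and was 3.58, 4.66 and 4.63 in IF1-KO mice, 3.71, 3.45 and 4.56 in CRL mice and 4.59 and 4.83 in IF1-TG mice. The array labelled KO1 and both CRL arrays of its slide were the low ones. Its difference was 0.42 and not called, 1.25 within slide 2 and 1.22 with slide as a block (unadjusted P = 0.00146), where it was called, but 0.07 without the array labelled KO1 and, with TG2 as the sole IF1-TG array, -0.05 without both KO1 and TG3. The gamma, delta and epsilon subunits Atp5c1, Atp5d and Atp5e gave 0.05, -0.06 and -0.24. The assembly factors Atpaf1 and Atpaf2 gave 0.22 and -0.21.

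Of 12 genes of Fo and the stalk, 10 were above 0 and none was called. Their median was 0.15, against 0.01 for all genes, and 0.07 within slide 2. The largest difference was that of Atp5j, coupling factor 6, with 0.56 (unadjusted P = 0.048, short of 1.5-fold) and without a usable spot on the array labelled KO1. It was called without TG2 (0.67). Leaving out KO2 or KO3 left 1 IF1-KO array, of 3.96 or 3.24, and gave 0.20 or 0.92. The c-ring genes Atp5g1, Atp5g2 and Atp5g3 gave 0.17, 0.05 and 0.18. Atp5f1, Atp5j2, Atp5o, Atp5k, Atp5l and Atp5h gave 0.29, 0.21, 0.19, 0.14, 0.13 and 0.06, and Usmg5 and Atp5s gave -0.03 and -0.12. With 1 array left out Atp5f1 ran from 0.08 to 0.51. Several of these genes have processed copies, and the files place probes of Atp5l, Atp5o, Atp5j2, Atp5k, Atp5g2, Atp5c1 and Usmg5 on other chromosomes than the gene, so that these values may include copies.

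The respiratory chain showed no shift of its median. The 37 Complex I genes had a median of 0.01 with 20 above 0, and the 24 genes of Complexes II, III and IV a median of -0.03 with 9 above 0, and no gene of either list was called. The 22 antioxidant enzymes had a median of 0.05, none called. The genotypes did not overlap for 6 of them (27.3%, against 13.2% of all genes), Keap1 at 0.46, Prdx6 at 0.39, Sod1 at 0.29, Prdx2 at 0.26, Prdx3 at -0.21 and Gpx4 at -0.56. The 18 genes of mitochondrial dynamics and biogenesis had a median of 0.04, none called.

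Calcium handling genes showed small differences that leaned upward. Of 27 calcium pumps, exchangers and channels, 20 were above 0 (74.1%, against 52.9% of all genes), with a median of 0.18, which was 0.25 without the array labelled KO1, 0.07 within slide 2 and 0.02 with slide as a block. Atp2b2 and the sodium/calcium exchanger Slc8a1 were called. The Slc8a1 probe, with 0.65, had overlapping arrays, and its call was lost without any of 7 single arrays, including all 3 CRL arrays (0.34 to 0.68), and with slide as a block (0.71). The channel subunits Cacnb4 and Cacna2d2 and the IP3 receptor Itpr2 gave 0.49, 0.57 and 0.51, short of 1.5-fold, and the channel subunits Cacnb2, whose arrays did not overlap, and Cacna1c gave -0.40 and -0.33.

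Of 23 calcium/calmodulin kinases and their targets, 19 were above 0, with a median of 0.16, and the arrays did not overlap for 8 (34.8%, against 13.2% of all genes). The median was 0.13 within slide 2, 0.11 under quantile normalization, 0.07 with slide as a block and 0.11 to 0.19 with 1 array left out. Plcb4, a phospholipase C of Gq-coupled receptors, was called, at -2.86, -2.67 and -2.84 in IF1-KO mice, -2.70, -2.39 and -2.87 in CRL mice and -2.08, -2.01 and -2.16 in IF1-TG mice. It rose by 0.71 (SE 0.14, unadjusted P = 0.000765), with 0.71 within slide 2 too, but its other probes differed by 0.23 and 0.04, and with slide as a block it gave 0.56, short of 1.5-fold. The kinase Camk1d went the other way, with -0.70 and no overlap (unadjusted P = 0.0572), at 2.94, 2.90 and 2.79 in IF1-KO mice and 2.45, 1.36 and 2.71 in IF1-TG mice, of which TG2 was the lowest. Camk4 gave -0.38, and Camkv, Camk2a and Camk2b gave 0.35, 0.26 and 0.23, none called.

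The genes of synapses moved singly. Among 12 GABA A receptor subunits Gabra2 was called and the others lay between -0.22 and 0.11. Of 23 glutamate receptor genes, Grid1, a delta receptor that organizes synapses, was called, at -1.45, -1.07 and -1.52 in IF1-KO mice, -1.44, -1.18 and -1.20 in CRL mice and -2.01, -2.13 and -2.06 in IF1-TG mice. Its difference was -0.72 (SE 0.14, unadjusted P = 0.00077), with -0.78 without the array labelled KO1 and -0.61 within slide 2. The NMDA receptor genes Grin1, Grin2a and Grin2b gave -0.52, 0.38 and 0.04 and were not called.

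Of 24 postsynaptic scaffold and adhesion genes, a dim probe of the adhesion protein Nlgn1 was called, with 0.71, lost without KO2 (0.56), TG1 (0.67) or TG3 (0.53) and with slide as a block (0.82), while the bright Nlgn1 probe gave 0.03. None of 26 genes of synaptic vesicles and release was called, with a median of 0.02. Among 34 potassium channel genes, Kcnf1 was called lower, by -0.84. The Kcnf1 call was lost without KO1 or KO2, any CRL array or TG1 (-0.94 to -0.42), and with slide as a block (-0.40).

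Of 31 actin regulators 2 were called lower. Actr3, a core subunit of the Arp2/3 complex, which nucleates branched actin, was at least 3.83 on the IF1-KO arrays, 4.33 and 4.02 on the usable CRL arrays and 3.00, 2.95 and 3.46 on the IF1-TG arrays. It fell by 0.86 (SE 0.18, unadjusted P = 0.00126), with -0.64 within slide 2. The files place its probe on chromosome X although the gene lies on chromosome 1. The actin-severing protein Cfl1 gave -0.74 on the called probe and 0.24 and -0.12 on the others, and its call was lost without KO2 (-0.68) or KO3 (-0.67) or TG1 (-0.53), and with slide as a block (-0.05). The median of the list was -0.01. Among 20 genes of the MAP kinase cascade none was called, with a median of -0.02, and among 21 of the CD40 and NF-kB pathway none was, with a median of 0.05.

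**Figure D4:**
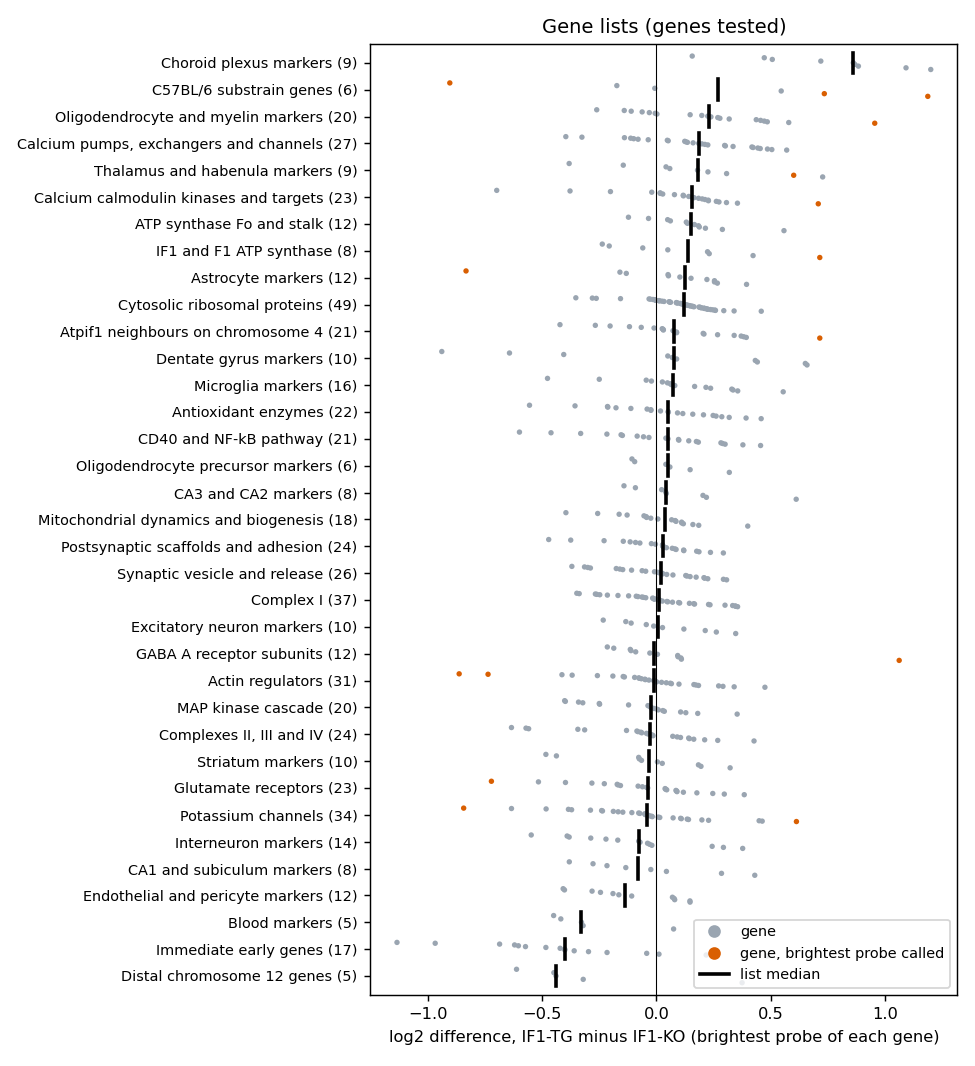
Log2 difference between IF1-TG and IF1-KO mice (x axis) of the brightest probe of each gene, by list (rows, with the number of genes tested), with a bar at the list median. Called genes, in orange, are few and scattered, and the medians run from -0.44 for genes at the end of chromosome 12 to 0.86 for choroid plexus markers.

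The 49 cytosolic ribosomal protein genes lay above 0 in 39 cases (79.6%), with a median of 0.12 and none called, and did not overlap in 15 (30.6%, against 13.2%). Their median was 0.09 within slide 2 and 0.00 under quantile normalization. On the array level, the list stood at 0.00, -0.06 and -0.05 in IF1-KO mice, 0.00, 0.02 and -0.10 in CRL mice and 0.05, 0.11 and 0.07 in IF1-TG mice, so that the lowest arrays were those of slide 3 in both IF1-KO and CRL mice.

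Immediate early genes, which neurons induce within minutes of activity, were lower on average but varied from mouse to mouse. Of 17 tested, 14 were below 0 and none was called, with a median of -0.40 and -0.34 within slide 2. The list stood at 0.13, 0.73 and -0.46 in IF1-KO mice, 0.09, 0.80 and -0.34 in CRL mice and -0.73, 0.14 and -0.16 in IF1-TG mice, which overlap. Its median was -0.09 without TG1, -0.13 without KO2 and -0.78 without KO3. Fos was -0.86, 0.10 and -2.64 in IF1-KO mice and -3.46, -0.95 and -1.90 in IF1-TG mice, and Arc was 4.16, 4.59 and 3.24 against 2.76, 4.33 and 3.69.

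Markers of other tissue moved with single arrays. All 9 choroid plexus markers tested were above 0, none was called, and their median was 0.86 with an SD between replicates of 2.23. The list stood at 3.35 on TG1, at 2.04 on CRL2 and at 1.46 on KO3, against -0.63 or less on the other arrays. Transthyretin, Ttr, the main secreted protein of the plexus, was 2.07, 0.33 and 6.52 in IF1-KO mice and 7.34, 3.21 and 1.97 in IF1-TG mice. Without TG1 the median was -0.59, without KO2 it was -0.02, without KO3 it was 2.06, within slide 2 it was -0.22, and with slide as a block it was -1.12. The 5 blood markers had a median of -0.33, which was -0.68 without KO1, -0.09 without KO2, -0.59 without TG2 and 0.01 without TG3, and stood highest, at 3.07, on CRL2. Of 8 pituitary markers 2 were tested, and Gh and Prl were well above background on none of the 6 arrays compared.

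Of 20 oligodendrocyte and myelin markers, 14 were above 0, with a median of 0.23, 0.05 without KO2 and -0.03 within slide 2. KO2 stood at -0.44 on this list, below every other array. Ermn, a cytoskeletal protein of myelinating cells, was the single marker called, with 0.96 on 1 probe and 0.10 on the other, and with slide as a block it was not called (0.74). Cnp and Mal, components of myelin, gave 0.49 and 0.58, short of 1.5-fold. The same IF1-KO array was also lowest for the dentate gyrus markers, at -0.59 against -0.07 or more on the other arrays. The part of dissection in the gene differences above was not tested.

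Microglia markers lay above 0 in 12 of 16 cases with a median of 0.07, and Ctss and Trem2 gave 0.55 and 0.36, none called. The genotypes did not overlap for 5 of them (31.2%, against 13.2% of all genes). Of 12 astrocyte markers, a probe of the water channel Aqp4 was called with 0.79, and its brighter probe gave 0.39. The Aqp4 call was lost without KO2 (0.58). The gap junction gene Gjb6 was called with -0.83, lost without any 1 IF1-KO array, CRL1 or CRL2 or TG1 (-0.87 to -0.40) and with slide as a block (-0.11), and the other astrocyte markers had no call. In the thalamus and habenula list the Wnt factors Tcf7l2 and Lef1 were called. The list stood at 0.46 on TG2 and at 0.01 or less on every other array, and its median of 0.18 was 0.04 without TG2. The called Tcf7l2 probe was likewise highest on TG2, at -1.76 against -3.08 and -3.10 on TG1 and TG3, and differed by 0.89 without it. The Lef1 call (0.60) was lost without any 1 IF1-KO array, CRL1 or TG1 or TG2 (0.40 to 0.65), and with slide as a block (0.04). No marker of excitatory neurons, hippocampal subfields, interneurons, oligodendrocyte precursors, endothelium or striatum was called, and the medians of these lists lay between -0.14 and 0.08.

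**Figure D5:**
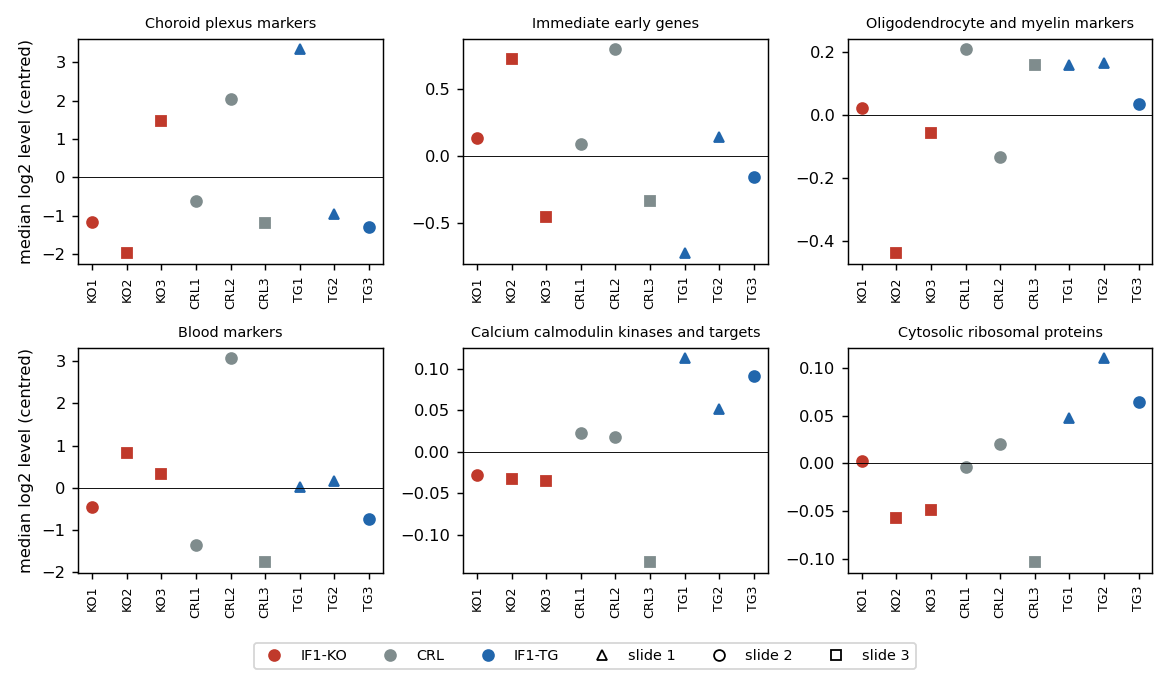
Median log2 level of 6 gene lists on each of the 9 arrays (y axis, centred per gene over the arrays), with genotype by color and slide by marker. Choroid plexus and blood markers span several log2 units between mice of 1 genotype, whereas the calcium/calmodulin and ribosomal lists span less than 0.3.

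Genes that can differ between C57BL/6 substrains were called in 3 of 6 cases, against 3.74% of all genes, and were listed because earlier results of these data had pointed to them. Beside Wdfy1 and Entpd4, the insulin-degrading enzyme Ide was -0.20, -0.24 and -0.29 in IF1-KO mice, -0.04, -0.17 and -0.33 in CRL mice and 0.62, 0.36 and 0.49 in IF1-TG mice. It rose by 0.73 (SE 0.12, unadjusted P = 0.0002), with 0.69 within slide 2 and 0.75 without the array labelled KO1. Fgfbp3, near Ide on chromosome 19, gave 0.55, short of 1.5-fold. It was 1.04 within slide 2, and it was called with slide as a block (0.99) and without KO2 (0.65) or TG2 (0.76). Nnt, the transhydrogenase that differs between substrains, gave -0.17 with overlapping arrays, and Cyfip2 gave -0.01. For Ide and Entpd4 the IF1-TG arrays stood apart from both other genotypes, and for Wdfy1 the IF1-KO arrays did.

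Genes at the end of chromosome 12 (5 tested) had a median of -0.44, 0.02 within slide 2 and -0.02 without TG1, and none was called. Wdr60, Ncapg2, Esyt2 and Vipr2 gave -0.44, -0.45, -0.32 and -0.61 and Ptprn2 0.37, all with overlapping arrays, while another Ptprn2 probe gave -0.56. Without TG1 the difference of Vipr2 was 0.34 and that of Esyt2 -0.02, and without TG2 that of Vipr2 was -1.65 and that of Esyt2 -0.58. The 21 genes tested around Atpif1 on chromosome 4 had a median of 0.08, and Atpif1 alone was called, although Laptm5 lies nearby outside the list.

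Without the array labelled KO1, 554 of all 741 genes called kept their call, and so did 37 of the 42 named genes that were called. Of these 42, 26 kept the call when each of the 9 arrays was left out in turn. With slide as a block in the fit, 18 were called. In that fit TG3 alone gave the IF1-TG level. Many of the named genes were chosen for large differences without overlap on these arrays, so that keeping a call is partly built in. Called under each of these fits on the higher side were Stk38l, Ino80b, Gabra2, Wdfy1, Ide, St6galnac1, Cabp5 and Shc4. Those on the lower side included Smco3, Entpd4, Grid1, Actr3, Slc25a37, Socs2 and Caprin1. Of these, Shc4, Socs2 and Caprin1 lost the call when the probes of each gene were averaged. Shc4 and Slc25a37 lost it when both KO1 and TG3, the pair of slide 2, were left out (1.15 and -1.73). That pair entered the fit that chose the genes, so that the slide 2 values given for single genes are part of the same measurement and no separate check.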

How the data were processed

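Gene expression was measured on 9 one-colour Agilent arrays, 1 mouse each. Processed spot intensities deposited by the authors came from Agilent Feature Extraction 10.7.3.1, with background subtracted within each array and no normalization between arrays. Mean and local background intensities, also deposited, served 1 alternative. Probe positions are the deposited ones on mm9, without exon annotation here, and gene names were matched to RefSeq (GRCm38.p6) for 15784 names.

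Processed intensities were taken to log2 minus the 75th percentile of the array, without control and outlier spots, and spots of a probe were averaged. No spot was saturated. Correlations between replicates were 0.985 to 0.993, and the number of arrays limits the precision. All 9 arrays entered limma 3.58.1 (R 4.3.3) with genotype as the term, and a gene was called when a probe reached 1.5-fold with an unadjusted P value below 0.05. P values measure the spread between arrays of the same genotype, pooled over all genotypes, which includes differences between slides. They make no allowance for arrays whose slide and genotype cannot be told apart. The steps were tested on simulated data.

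The filter left out 280 probes well above background on all IF1-KO and no IF1-TG arrays, and 5 of the reverse kind. The genes named are Atpif1, genes past adjustment, the 10 largest increases and decreases without overlap, up to 5 such genes each way called on several probes, which leaves out those whose brightest called probe overlapped, called members of the 36 lists, and ATP synthase, substrain and chromosome 12 genes. A gene is given by its called probe of highest signal, otherwise by its brightest probe, and lists by the brightest. Members and lists were chosen with earlier results of these data known, and some results are not reported here. Replicate numbers did not pair the mice. Alternatives were quantile normalization, normexp with quantile normalization, another scale, 2 other filters on dim probes, slide as a fixed or random block or held to slide 2, the replicate number as a block, only the 6 arrays compared, a variance trend with robust eBayes, averaging the probes of each gene and each array left out. Keeping probes on the chromosome of their gene was added after seeing the data.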

Additional observations from a re-analysis of the deposited data

How the results depend on the processing

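Against 741 genes called (430 higher, 313 lower in IF1-TG mice), no filter on dim probes gave 3101 (2371 and 748), slide as a fixed block 1115 (482 lower), leaving out both IF1-KO and IF1-TG arrays of slide 2 1245 (770 lower), and probes on the chromosome of their gene 486 (248 higher). Normexp with quantile normalization gave 254 higher genes, and probes well above background in at least 1 genotype 574 lower genes. With 1 array left out, the counts ran from 408 (without KO2) to 1329 (without TG2) in all, from 222 to 823 higher and from 187 to 744 lower, the last without TG3.

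The 1 probe past Benjamini-Hochberg adjustment became 0 under quantile normalization, normexp, no filter, slide as a fixed block, without slide 2, the replicate block, only the 6 arrays, trend and robust options, gene means and probes on the chromosome of their gene. It became 3 with the filter on 1 genotype, and 0 to 3 with 1 array left out. The median of Fo and stalk genes (0.15) was 0.078 under quantile normalization, 0.044 with slide as a fixed block and 0.068 within slide 2. That of calcium pumps and channels (0.18) was 0.025 with slide as a fixed block, 0.073 within slide 2 and 0.12 to 0.25 with 1 array left out. That of myelin markers (0.23) was -0.027 within slide 2 and 0.048 to 0.36 with 1 array left out. The cause of these shifts was not tested.

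Replicate numbers showed no pairing: the correlations of IF1-KO and IF1-TG deviations with the same number were -0.15, 0.10 and -0.12, and 1 of 6 arrays fitted its own number best. With the replicate block 735 genes were called, 403 higher and 333 lower.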
